A study of Mus musculus with 12 samples.

Results

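The enteric nervous system of the rectum was followed through 32 genes that mark its neurons, its glia and the pacemaker cells it works with. The genes were picked by symbol, and a member was tested where its mean over the 12 mice was at least 0.1 FPKM, an expression level scaled for transcript length and for the reads mapped. That filter kept 30 of the 32 among 15315 genes tested, out of 17734 in the expression table. The 2 left out were Th, the rate-limiting enzyme of catecholamine synthesis, and Erbb4, a neuregulin receptor.

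RNA came from bulk tissue of male C57BL/6 mice, 8 to 10 weeks old at the start, in 4 groups of 3 mice. Normal mice had plain water, and colitis mice drank dextran sulphate sodium (DSS), a detergent-like polymer that injures the colonic lining, at 2.5% for 7 days. Berberine (BBR), a plant alkaloid, was given by gavage, for 6 days per the labels, to otherwise normal mice (normal with BBR) and to mice on DSS (colitis with BBR). The study's methods have daily doses running until day 7, so the length of treatment is not settled. The labels call the tissue colorectum and the study's methods call it rectal. DSS colitis is a chemical injury model, and nothing in the sources used here ties a mouse to a cage or litter, so p-values measure the spread between these mice only.

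Enteric neurons sit in plexuses within the gut wall and drive motility, secretion and blood flow with acetylcholine, nitric oxide and peptides such as vasoactive intestinal peptide and substance P. Enteric glia surround them, and interstitial cells of Cajal set the electrical slow waves that smooth muscle follows. Substance P is also made by some enteroendocrine cells of the epithelium, Kit is also carried by mast cells, and Ano1 is also present in some epithelia. In bulk tissue, fewer cells of a type and less RNA per cell cannot be told apart.

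The mice numbered 4, 1 in each group, stood apart from the other 8. Their summed values were 482194 to 504337 against 696286 to 765876, 872 to 1086 genes were listed at 0 against 1332 to 1926, and 3 reads on a transcript of 2000 bases were worth 0.0754 to 0.0855 FPKM against 0.106 to 0.113. No label says why. Values within the mice numbered 1 to 3 and within those numbered 4, where each group has 1 mouse, are therefore given as well as the pooled ones for colitis against normal and for the members each other comparison turns on.

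The tested pan-neuronal, glial and pacemaker members were above 0 in every normal mouse. Ano1, the calcium-activated chloride channel of pacemaker cells, was the highest member at 75.9 ± 11.4 FPKM (SD, n = 3), followed by Vip at 20.4 ± 9.78, Uchl1 at 14.3 ± 1.70 and Tac1 at 12.6 ± 4.19. These last 3 overlapped in their ranges over mice. Chat, the enzyme that makes acetylcholine, was the lowest tested member at 0.277 ± 0.0987 FPKM.

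Within groups, the members tended to be high or low in the same mouse. Normal mouse 4 was the highest of its group in 29 of 30 members, and normal mouse 1 with BBR was the lowest of its group in 30 of 30. Colitis mouse 1 was the lowest of its group in 26 members and colitis mouse 2 the highest in 23. The heat map of members by mouse shows these columns.

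**Figure D1:**
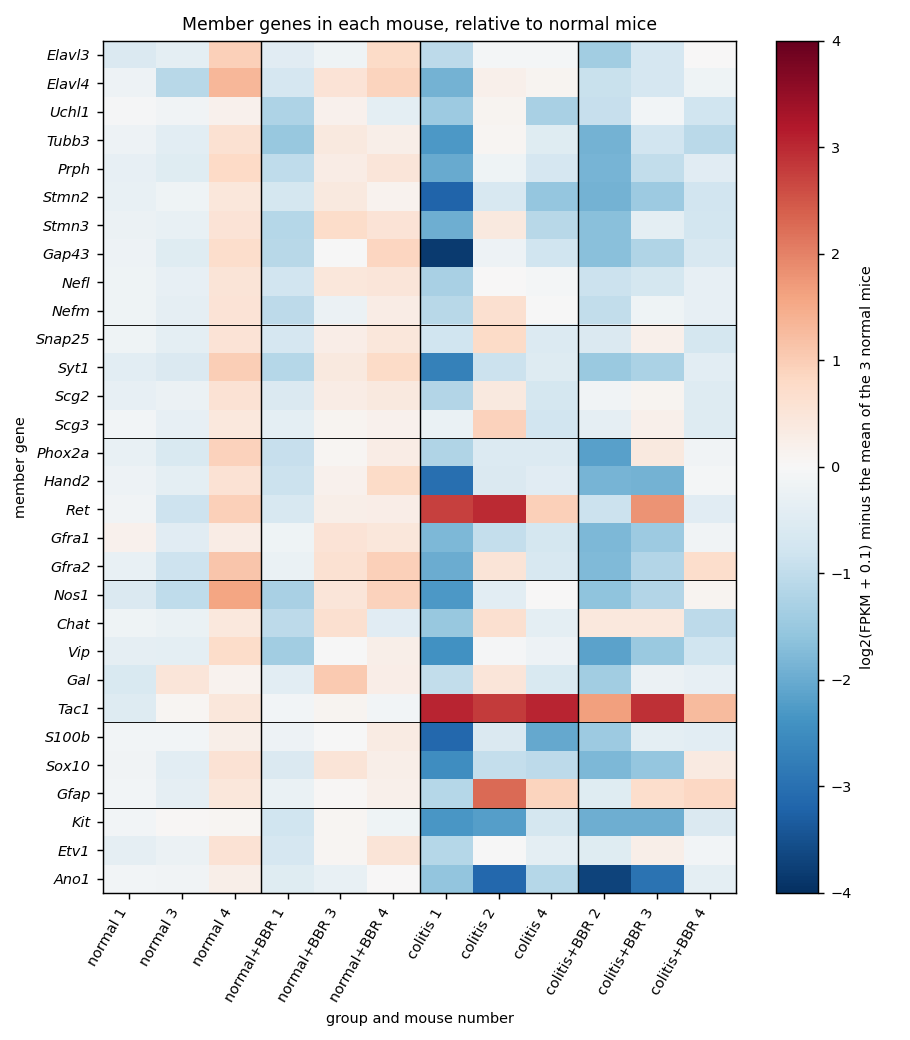
Heat map of the 30 tested members (rows, grouped by role) in the 12 mice (columns, 4 groups of 3); colour is log2(FPKM + 0.1) minus the mean of the 3 normal mice. Tac1 is red in all 6 colitis mice, with or without BBR, and colitis mouse 1 is blue in most rows.

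The question for colitis against normal was how DSS altered the members. Tac1 rose, and it was the 1 of 30 members past an adjusted p of 0.05, where 1.08% of all genes passed in either direction and 0.653% passed upwards. No member passed downwards (0.424% of all genes did). At an unadjusted P of 0.05 or less, 2 members were higher (Tac1 and Ret), with 5.56% of all genes, and 6 were lower (Stmn2, Gfra1, S100b, Sox10, Kit and Ano1), with 15.9%. The log2 fold change was below 0 in 27 of 30 members and in 73.7% of all genes, with medians of −0.82 and −0.32. All values of a fold change are from limma on log2(FPKM + 0.1), which understates the change of low genes, and adjusted p-values are Benjamini-Hochberg over all 15315 genes.

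The shift of the members against all genes differed between the sets of mice. Within the mice numbered 1 to 3 the median of the members was −0.47 and that of all genes −0.42. Within the mice numbered 4 it was −1.14 against −0.10. With quantile normalization the medians were −0.40 and −0.05, with 22 of 30 members below 0, and with median centring they were −0.48 and 0.02, with 24 below 0. Leaving out each mouse gave −1.19 to −0.20 for the members. The median was −0.20 without colitis mouse 1 and −0.31 without normal mouse 4, where those of all genes were −0.26 and −0.30, and −1.19 without colitis mouse 2, where that of all genes was −0.24.

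Tac1 encodes the precursor of substance P and neurokinin A, the excitatory peptides of enteric motor and sensory neurons. It stood at 8.33, 12.7 and 16.7 FPKM in normal mice 1, 3 and 4, and at 100.5, 84.7 and 99.7 in colitis mice 1, 2 and 4. The lowest colitis mouse was above the highest normal mouse. In the fit its log2 fold change was 2.96 ± 0.37 (SE), with an adjusted p of 0.00708 by limma, and the ratio of means was 7.56. It was 3.15 within the mice numbered 1 to 3 and 2.57 within those numbered 4. The exact permutation test gave p = 0.1, the smallest that 3 mice against 3 allow.

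Enteroendocrine markers moved with Tac1 in part of the mice. Of 15 tested, 14 were higher in colitis, with a median log2 fold change of 0.90, where 26.2% of all genes were above 0. Of these markers 2 were higher at an unadjusted P of 0.05 or less, with 5.56% of all genes, and none passed the adjusted limit. The largest values were those of the peptide hormone genes Cck (4.46 ± 1.11, adjusted p = 0.0706), Gcg (2.94 ± 0.85, adjusted p = 0.102) and Sct (2.12 ± 0.98, adjusted p = 0.237). Their summed level was 541 to 1043 FPKM in normal mice, and 2732, 5978 and 764 in colitis mice 1, 2 and 4. Colitis mouse 4, with Tac1 at 99.7 FPKM, lay inside the range of the normal mice but above normal mouse 4, which was at 541. The median log2 fold change of the list was 1.42 within the mice numbered 1 to 3 and 0.17 within those numbered 4. How much of the Tac1 signal came from these cells was not tested.

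No other member of the transmitter group passed the adjusted limit. Vip, which encodes the relaxant vasoactive intestinal peptide, stood at 15, 14.6 and 31.7 FPKM in normal mice 1, 3 and 4 and at 3.49, 18.3 and 16.7 in colitis mice 1, 2 and 4. The groups overlapped, and the log2 fold change was −0.89 ± 0.64 with an adjusted p of 0.405, −1.30 to −0.13 leaving out each mouse. Nos1, the neuronal nitric oxide synthase, was at 0.56, 0.38 and 2.84 FPKM against 0.10, 0.63 and 0.89, a log2 fold change of −0.90 ± 0.85, and of −1.41 to −0.10 leaving out each mouse. Normal mouse 4 was above the other 11 mice. Gal (galanin) and Chat had log2 fold changes of −0.37 and −0.42, and both overlapped. Within the mice numbered 1 to 3 and within those numbered 4 the values were −0.87 and −0.92 for Vip, −0.56 and −1.57 for Nos1, −0.19 and −0.73 for Gal and −0.22 and −0.81 for Chat.

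Both peptide genes have a promoter window in RefSeq, and they are printed to set the 1 member that rose beside a neuropeptide member that did not pass the limit. The windows run from 250 bases before to 50 after the start of the RefSeq transcript in build GRCm38.p6, both on the plus strand, at chr6:7554811-7555110 for Tac1 and chr10:5638968-5639267 for Vip. Capitals mark CACGTG, an E-box, which starts 61 bases before the start in Tac1, and TGACGT, the core of the cyclic AMP response element, which starts 79 bases before it in Vip.
Tac1: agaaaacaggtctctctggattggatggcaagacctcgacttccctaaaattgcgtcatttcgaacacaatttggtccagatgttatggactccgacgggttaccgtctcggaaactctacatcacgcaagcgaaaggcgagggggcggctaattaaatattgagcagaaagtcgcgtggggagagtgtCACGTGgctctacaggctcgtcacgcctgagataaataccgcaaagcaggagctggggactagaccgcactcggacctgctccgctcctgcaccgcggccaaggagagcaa
Vip: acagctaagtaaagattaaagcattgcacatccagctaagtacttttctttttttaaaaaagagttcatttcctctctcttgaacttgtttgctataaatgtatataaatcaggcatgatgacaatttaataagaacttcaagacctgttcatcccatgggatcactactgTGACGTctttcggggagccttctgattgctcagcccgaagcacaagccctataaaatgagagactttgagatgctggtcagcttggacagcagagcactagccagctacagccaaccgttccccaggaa
Searched on both strands, CACGTG was in 7.15% of 32851 such windows and TGACGT in 7.51%. Of the 24 members with a window, 2 held CACGTG (Tac1 and Chat) and 5 held TGACGT (Chat, Elavl4, Scg2, Th and Vip). The 2 motifs do not overlap in these windows, and a match describes letters only.

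The pan-neuronal and cytoskeletal members were all below 0 on the log2 scale, 10 of 10, with a median of −0.88, and none passed the adjusted limit. Under quantile normalization Nefl and Nefm lay above 0. Stmn2, a microtubule regulator of growing axons, stood at 6.07, 6.49 and 10.3 FPKM in normal mice 1, 3 and 4 and at 0.71, 4.69 and 2.44 in colitis mice 1, 2 and 4. It was the 1 gene of this group without overlap, at −1.81 ± 0.57 with an adjusted p of 0.119. Gap43, a growth-cone protein, was at 2.63, 2.15 and 5.01 FPKM against 0.12, 2.62 and 1.73, a log2 fold change of −1.61 ± 0.82. The lowest value of Gap43, in colitis mouse 1, was worth 2 reads.

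Uchl1, the ubiquitin hydrolase PGP9.5 that labels neurons in sections, was at 13.7, 12.9 and 16.2 FPKM in normal mice 1, 3 and 4 and at 5.09, 15.3 and 5.79 in colitis mice 1, 2 and 4. Colitis mouse 2 lay inside the normal range, and the log2 fold change was −0.88 ± 0.43 with an adjusted p of 0.256. Prph (peripherin), Tubb3 (neuronal tubulin) and Stmn3 lay at −0.96, −0.91 and −0.89. The RNA-binding proteins Elavl4 and Elavl3 (HuD and HuC) lay at −0.52 and −0.40, and the neurofilaments Nefl and Nefm at −0.45 and −0.16. Each of these 7 overlapped between groups. The signs of Elavl3, Elavl4, Nefl and Nefm turned under at least 1 alternative. Leaving out each mouse gave −1.37 to −0.59 for Uchl1, −1.35 to −0.43 for Prph and −1.53 to −0.35 for Stmn3.

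For most pan-neuronal members the difference was larger within the mice numbered 4 than within those numbered 1 to 3. The pan-neuronal values within the mice numbered 1 to 3 and within those numbered 4 were −0.59 and −1.47 for Uchl1, −0.70 and −1.47 for Prph, −0.81 and −1.09 for Tubb3, −0.51 and −1.64 for Stmn3 and −0.19 and −1.19 for Elavl4. For the rest of that group they were −0.09 and −1.02 for Elavl3, −0.37 and −0.60 for Nefl and 0.04 and −0.54 for Nefm, while Stmn2 (−1.69 and −2.03) and Gap43 (−1.68 and −1.48) were low in both sets of mice.

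The 4 vesicle and secretory granule members had a median of −0.34, near the −0.32 of all genes. Snap25, a synaptic fusion protein, was at 4.97, 4.25 and 8.15 FPKM in normal mice 1, 3 and 4 and at 3.19, 9.59 and 3.79 in colitis mice 1, 2 and 4, a log2 fold change of −0.18 ± 0.46. Syt1, the calcium sensor of release, was at −1.36 ± 0.68 (adjusted p = 0.259), and the granins Scg2 and Scg3 at −0.49 ± 0.42 and −0.04 ± 0.42. All 4 overlapped. Snap25 and Scg3 were at 0.27 and 0.54 within the mice numbered 1 to 3 and at −1.08 and −1.21 within those numbered 4, and the same pair of values was −1.29 and −1.51 for Syt1 and −0.10 and −1.27 for Scg2.

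Among the factors and receptors of neuronal identity, Ret stood out from the rest. Ret is the signalling receptor for the GDNF family, and it was at 0.90, 0.52 and 2.04 FPKM in normal mice 1, 3 and 4 and at 7.16, 8.66 and 2.01 in colitis mice 1, 2 and 4. Colitis mice 1 and 2 were above every normal mouse, whereas colitis mouse 4 was level with normal mouse 4. Its log2 fold change of 2.22 ± 0.75 had an adjusted p of 0.137 by limma. It was 3.34 within the mice numbered 1 to 3 and −0.02 within those numbered 4.

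Of the co-receptors that bind the ligands of Ret, the members Gfra1 and Gfra2 and the listed Gfra4 were below 0, and Gfra3 was above. None passed the adjusted limit. Gfra1 was at 1.19, 0.73 and 1.30 FPKM in normal mice and at 0.23, 0.49 and 0.61 in colitis mice 1, 2 and 4, without overlap, at −1.15 ± 0.48 with an adjusted p of 0.200. Gfra2 was at −0.69 ± 0.77 and overlapped. Gfra3, the artemin co-receptor, which is no member and was named after its values were seen, was at 1.43, 0.76 and 1.03 FPKM against 1.73, 1.87 and 1.83, higher in every colitis mouse, at 0.74 ± 0.39 with an adjusted p of 0.278. Hand2, a transcription factor of enteric neurons that gut mesenchyme also expresses, was at 6.07, 5.39 and 10.7 FPKM against 0.79, 4.68 and 5.16. These groups did not overlap, and the log2 fold change was −1.34 ± 0.71 with an adjusted p of 0.281. Phox2a, a homeodomain factor of autonomic neurons, was at −0.76 ± 0.65. Within the mice numbered 1 to 3 and within those numbered 4 the values were −1.23 and −0.98 for Gfra1, −0.17 and −1.75 for Gfra2, −1.50 and −1.04 for Hand2 and −0.42 and −1.45 for Phox2a.

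**Figure D2:**
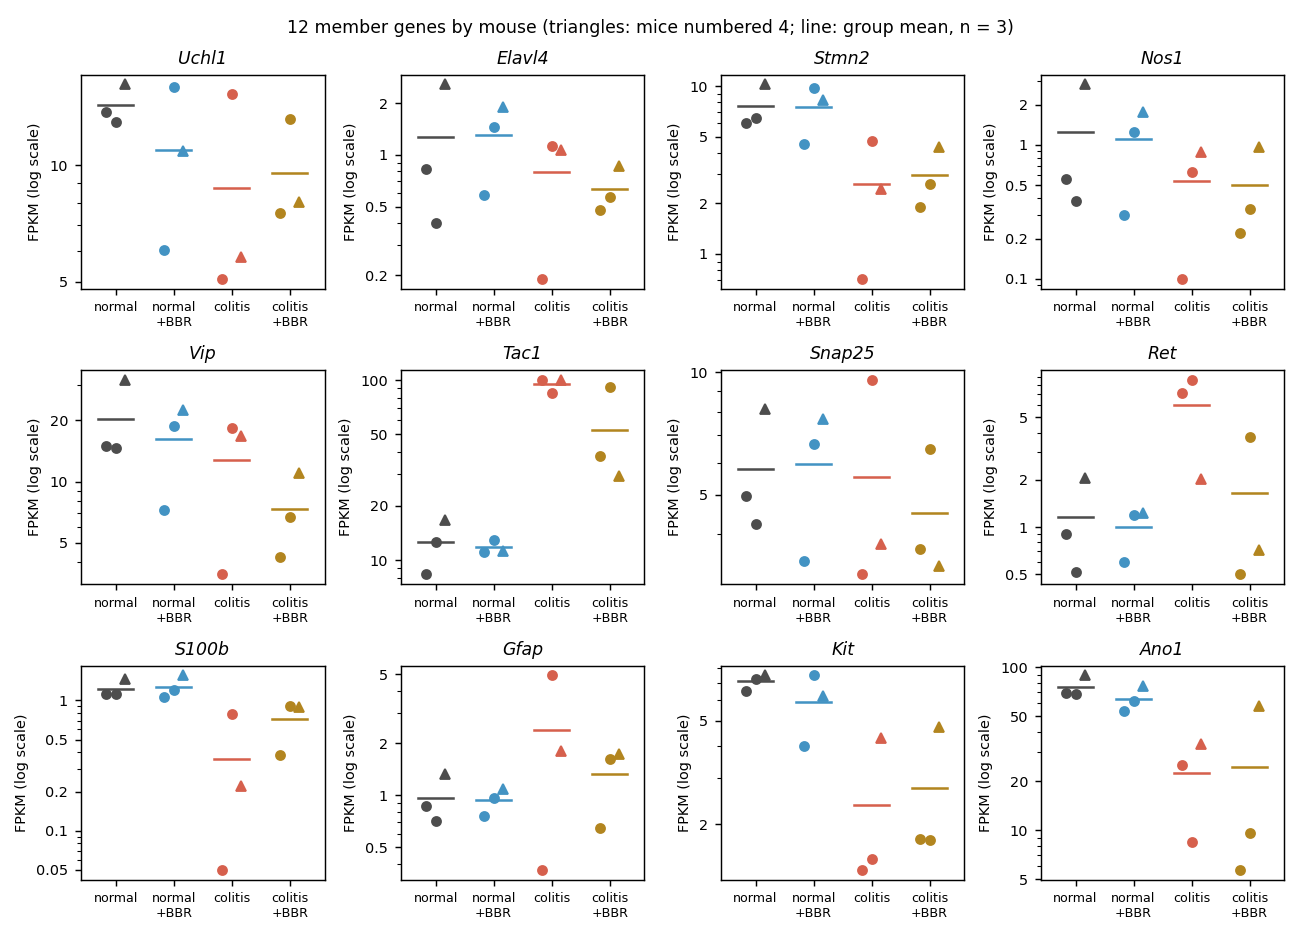
FPKM on a log axis for 12 members in the 4 groups; each point is a mouse, triangles are the mice numbered 4, and lines are group means (n = 3). Tac1 separates colitis from normal mice, Ret does so in the mice numbered 1 to 3, and Kit, Ano1, S100b and Stmn2 are lower in every colitis mouse than in every normal mouse.

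The glial members went different ways. S100b, a calcium-binding protein of glia, stood at 1.12, 1.13 and 1.45 FPKM in normal mice 1, 3 and 4 and at 0.05, 0.79 and 0.22 in colitis mice 1, 2 and 4, at −1.92 ± 0.56 with an adjusted p of 0.103. Sox10, the transcription factor of the neural crest and its glia, was at 0.80, 0.64 and 1.41 FPKM against 0.08, 0.42 and 0.38, at −1.49 ± 0.62 with an adjusted p of 0.198. Neither overlapped between groups, and the values of both genes in colitis mouse 1 lay under the worth of 3 reads on 2000 bases.

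Gfap, the glial intermediate filament, was at 0.87, 0.71 and 1.33 FPKM in normal mice and at 0.37, 4.93 and 1.81 in colitis mice 1, 2 and 4. Colitis mouse 1 was under every normal mouse and the other 2 were above them. The log2 fold change was 0.67 ± 0.70 with an adjusted p of 0.562, and without colitis mouse 2 it was −0.13. Colitis mouse 2 thus held the highest Gfap of the 12 mice and, within its group, the highest S100b and Sox10. The values within the mice numbered 1 to 3 and within those numbered 4 were −1.75 and −2.28 for S100b, −1.42 and −1.65 for Sox10 and 0.79 and 0.42 for Gfap.

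Of the 3 pacemaker cell members, Kit and Ano1 were without overlap downwards, Etv1 overlapped, and none passed the adjusted limit. Kit, the receptor tyrosine kinase on which interstitial cells of Cajal depend, stood at 6.55, 7.26 and 7.50 FPKM in normal mice 1, 3 and 4 and at 1.33, 1.47 and 4.30 in colitis mice 1, 2 and 4. Ano1 was at 69.7, 68.9 and 89.1 FPKM against 25.0, 8.46 and 34.0. Colitis mouse 4 was the highest of its group in both.

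Kit had a log2 fold change of −1.74 ± 0.48 with an adjusted p of 0.0907, and Ano1 of −1.96 ± 0.71 with an adjusted p of 0.157, both by limma. Within the mice numbered 1 to 3 they were −2.22 and −2.24, and within those numbered 4 −0.79 and −1.39. A fit with a term for the mice numbered 4 put both past the limit, with adjusted p-values of 0.0230 for Kit and 0.0483 for Ano1, and in that fit 3 of 30 members and 9.22% of all genes passed. Etv1, a transcription factor of pacemaker cells, was at −0.52 ± 0.42 and overlapped, with −0.30 and −0.95 in those sets of mice. Without overlap between groups were 7 members downwards, with 22.2% of all genes, and 1 upwards, with 7.1%.

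Markers of some other cells moved with these members. All 18 smooth muscle markers were lower in colitis, with a median log2 fold change of −2.49, where 73.7% of all genes were below 0. At an unadjusted P of 0.05 or less 14 of them were lower, with 15.9% of all genes, and none passed the adjusted limit. The largest were Myh11 at −3.24, Lmod1 at −3.10 and Actg2 at −3.09. Their summed level was 2779 to 4990 FPKM in normal mice and 482 to 1364 in colitis mice. The summed level of 12 mast cell markers was 5.84 to 8.73 FPKM in normal mice and 12.8 to 25.8 in colitis mice. Of the 8 tested, 5 were above 0 and 3 below, Mcpt2 at 3.63, Hdc at 2.31 and Mcpt1 at 2.15 were furthest above, and Gata2 fell, at −1.80 ± 0.32 with an adjusted p of 0.0289. All 6 endothelium markers were below 0, with a median of −1.14 and sums of 21.8 to 24.5 FPKM in normal mice and 6.55 to 17.2 in colitis mice, 3 of them lower at that P. All 8 tested granulocyte markers were higher at that P, with a median of 3.96 and sums of 3.90 to 7.56 FPKM against 70.2 to 762, and S100a8 and Il1b rose past the adjusted limit. Of 12 epithelium markers 6 were above 0 and 6 below (median 0.06), of 6 squamous epithelium markers 3 and 3 (median 0.03), and of 8 fibroblast markers 7 were below 0 with a median of −0.42 and none lower at that P. The share of these cells in the members' values was not tested.

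**Figure D3:**
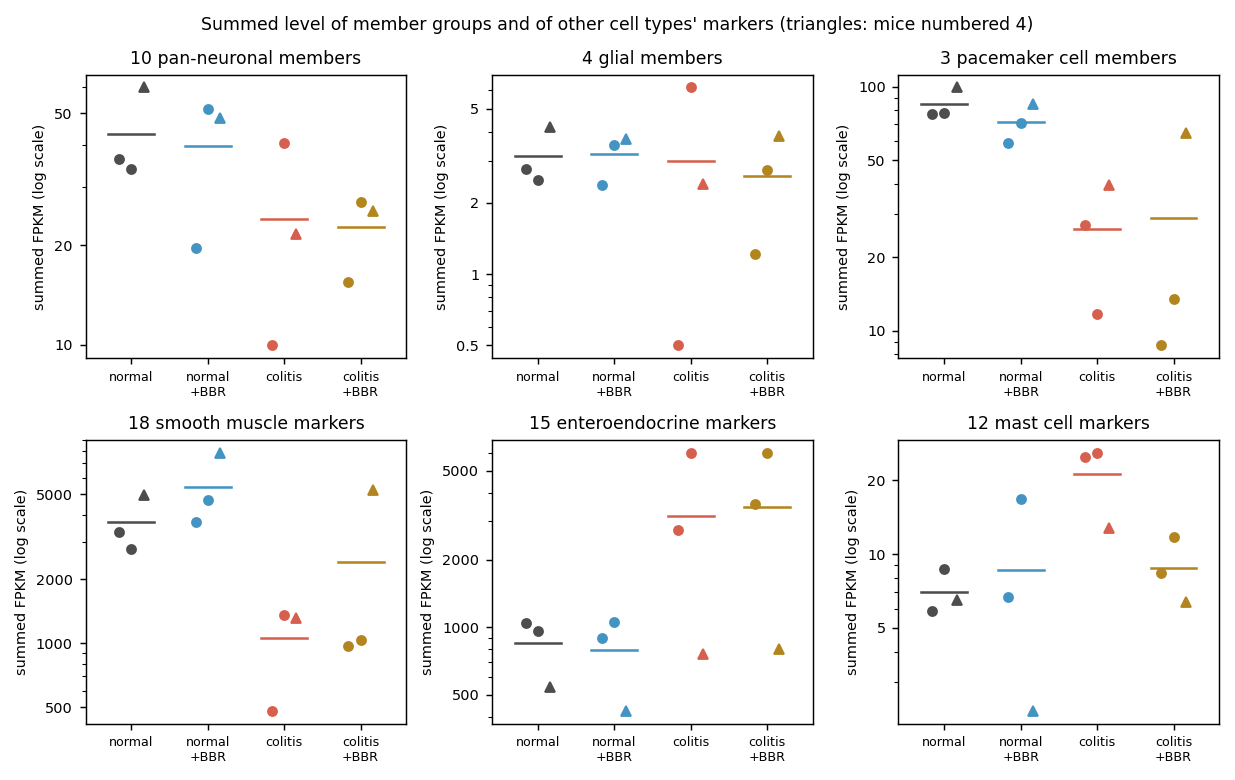
Summed FPKM on log axes for 3 groups of members and 3 lists of markers of other cells; each point is a mouse, triangles are the mice numbered 4, and lines are group means (n = 3). Pacemaker and smooth muscle sums are lower in all 3 colitis mice, and colitis mouse 4 with BBR, at 64.3 and 5233, is the highest of its group in both.

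Other genes of the same cells and pathways, taken from lists, were counted in the same comparison, and none passed the adjusted limit. These counts stand beside 73.7% of all genes below 0, 15.9% lower and 5.56% higher at an unadjusted P of 0.05 or less, and a median of −0.32. Of 53 other enteric neuron genes 47 were below 0 (median −0.81), led by the peptide genes Nmu at −2.33 and Npy at −2.10 and the calcium-binding protein gene Calb2 at −2.22. At an unadjusted P of 0.05 or less, 14 were lower and 1 higher. Of 14 genes of the GDNF, neurturin and endothelin pathways 9 were below 0 (median −0.74), a share under that of all genes, and 4 were lower at that P, with Gfra4 at −2.08, Gdnf at −2.01 and Ntf3 at −1.80. Gdnf, the ligand of Gfra1 and Ret, was at 0.73, 0.66 and 0.64 FPKM in normal mice and at 0.03, 0.06 and 0.24 in colitis mice 1, 2 and 4.

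The targets of enteric transmitters were counted in the same way and read against the same shares of all genes. Of 19 receptors and nitric oxide effectors 17 were below 0 (median −1.09) and 10 were lower at an unadjusted P of 0.05 or less, with the muscarinic receptor Chrm2 at −2.37, the neurokinin receptor Tacr2 at −2.18 and the serotonin receptor Htr4 at −2.15. The 2 above 0, named after their values were seen, were the adrenergic receptor Adra2a at 0.79, without overlap, and the substance P receptor Tacr1 at 0.31, with overlap, with adjusted p-values of 0.329 and 0.814. Of 22 other glial and Schwann cell genes 19 were below 0 (median −0.81), with Art3 at −2.53 and Ptprz1 at −2.10, while the glial growth factor Nrg1 was at 1.61. At that P, 7 of them were lower and 2 higher. Of 16 other pacemaker and interstitial cell genes 15 were below 0 (median −0.74) and 3 were lower at that P, with the gap junction gene Gjc1 at −1.77, Lix1 at −1.56 and the calcium release channel Itpr1 at −1.43.

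The next comparison asked how BBR altered these values in colitis mice. No member passed the adjusted limit by limma, nor did any of the 15315 genes (0% of all genes). At an unadjusted P of 0.05 or less, 2 members were lower, Ret and Tac1, with 5.2% of all genes, and none was higher, with 1.19%. No member was free of overlap, where 7.08% of all genes were. The log2 fold change was below 0 in 16 of 30 members and in 62% of all genes, with medians of −0.05 and −0.09.

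Tac1 stood at 37.7, 91.5 and 29.4 FPKM in colitis mice 2, 3 and 4 with BBR, against 84.7 to 100.5 in colitis mice. Mouse 3 with BBR lay inside the colitis range and the other 2 lay under it, and all 3 were above every normal mouse. Against colitis alone Tac1 was at −1.02 ± 0.37 with an adjusted p of 0.631. It was −0.65 within the mice numbered 1 to 3 and −1.76 within those numbered 4, and −1.50 to −0.69 leaving out each mouse. Under 1 of 18 alternatives it passed the limit, without colitis mouse 3 with BBR. There it was −1.50 with an adjusted p of 0.0487 by limma, where 0.379% of all genes passed. The summed enteroendocrine markers in colitis mice 2, 3 and 4 with BBR were at 3548, 6024 and 799 FPKM, in the same order as Tac1. In colitis mice 1, 2 and 4 they were at 2732, 5978 and 764 FPKM, and mouse 2, with the highest sum, had the lowest Tac1. The median log2 fold change of these markers, with BBR against colitis alone, was −0.51. Their part in the Tac1 values was not tested.

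Ret was at 0.50, 3.72 and 0.71 FPKM in colitis mice 2, 3 and 4 with BBR, against 7.16, 8.66 and 2.01 in colitis mice 1, 2 and 4. Mouse 3 with BBR was above colitis mouse 4, so the groups overlapped. Ret was at −2.06 ± 0.75 with an adjusted p of 0.632, −2.40 within the mice numbered 1 to 3 and −1.38 within those numbered 4. S100b, at 0.38, 0.90 and 0.89 FPKM, had the largest value above 0, at 1.16 ± 0.56 with an adjusted p of 0.815.

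Kit and Ano1 differed between mice within the colitis with BBR group. Kit was at 1.75, 1.74 and 4.74 FPKM in mice 2, 3 and 4, and Ano1 at 5.70, 9.60 and 57.9. Mouse 4 held the highest value of both. Its smooth muscle sum was 5233 FPKM, against 975 and 1034 in mice 2 and 3, and its granulocyte marker sum was 6.90 FPKM, against 239 and 232 there and 3.90 to 7.56 in normal mice. The log2 fold changes against colitis were 0.25 ± 0.48 for Kit and −0.39 ± 0.71 for Ano1. Within the mice numbered 1 to 3 and within those numbered 4 they were 0.30 and 0.14 for Kit. For Ano1 they were −0.97 and 0.77, in opposite directions.

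**Figure D4:**
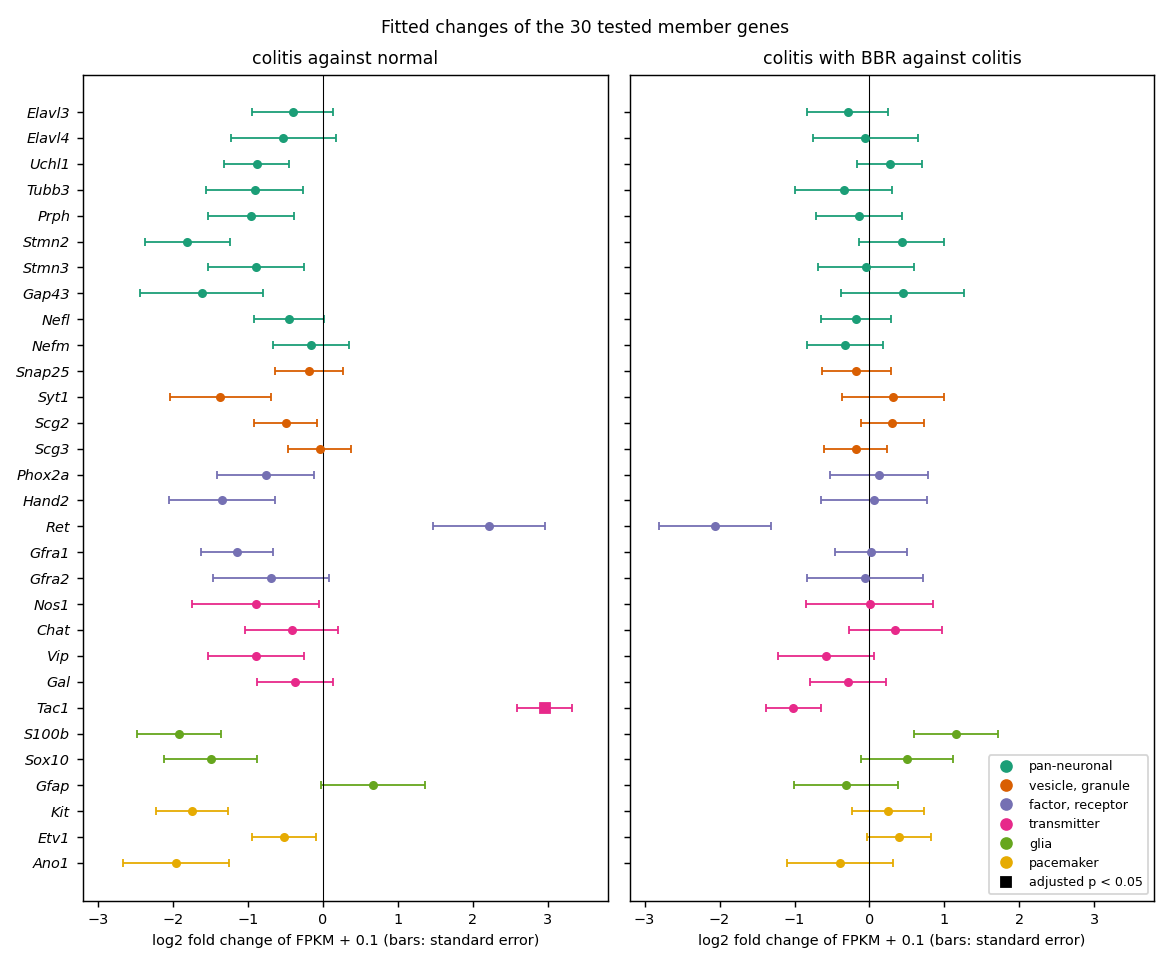
Log2 fold change of FPKM + 0.1 of the 30 tested members, coloured by role, in colitis against normal (left) and colitis with BBR against colitis (right); bars are standard errors from limma and the square marks an adjusted p under 0.05. Tac1 at 2.96 is the 1 square, most members on the left lie below 0, and on the right Ret and Tac1 lie furthest below 0.

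In normal mice BBR was compared in the same way. No member and no gene passed the adjusted limit by limma, and no member had an unadjusted P of 0.05 or less, where 1.36% of all genes did. The largest fold changes were −0.48 ± 0.43 for Uchl1 and 0.43 ± 0.77 for Gfra2. Tac1 was at 11.1, 13 and 11.2 FPKM in normal mice 1, 3 and 4 with BBR, inside the normal range. The log2 fold change was below 0 in 16 of 30 members and in 54% of all genes, with a median of −0.02 for both, and no member but 9.62% of all genes were without overlap.

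Whether BBR acted differently in colitis than in normal mice was tested as an interaction. No member passed by limma at the adjusted limit or at an unadjusted P of 0.05 or less, where 2.42% of all genes did at the latter. The largest terms were −2.01 ± 1.06 for Ret, 1.12 ± 0.79 for S100b and −0.98 ± 0.52 for Tac1.

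The colitis mice with BBR were also set against each normal group, which shares mice with the comparisons above. Against normal mice with BBR, no member passed the adjusted limit in the main fit (0.0392% of all genes did). With a term for the mice numbered 4 Tac1 alone passed it, where 1.75% of all genes did. In the main fit Tac1 was higher at an unadjusted P of 0.05 or less, with 2.37% of all genes, at 1.98 ± 0.37 with an adjusted p of 0.117, and Stmn2, Gfra1, Kit and Ano1 were lower at that P, with 17.3% of all genes. Those 4 were 12 without normal mouse 1 with BBR and 0 without colitis mouse 2 with BBR, where 13.5% and 8.4% of all genes were lower at that P. Values within the mice numbered 1 to 3 and within those numbered 4 were 2.28 and 1.39 for Tac1. They were −1.53 and −0.91 for Stmn2 and −1.80 and −0.62 for Gfra1. For Kit they were −1.60 and −0.38, and for Ano1 −2.94 and −0.39. The fold change was below 0 in 26 of 30 members and in 80.1% of all genes. Without overlap were Tac1 upwards (2.26% of all genes) and Stmn2 and S100b downwards (18% of all genes).

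Against normal mice, no member passed the adjusted limit (0.0196% of all genes did), with Tac1 at 1.94 ± 0.37 and an adjusted p of 0.110. At an unadjusted P of 0.05 or less, 1 member was higher, Tac1, with 1.84% of all genes, and 5 were lower, Stmn2, Gfra1, Vip, Kit and Ano1, with 18.3%. The fold change was below 0 in 27 of 30 members and in 81.1% of all genes. Vip was at 4.27, 6.70 and 11.01 FPKM in colitis mice 2, 3 and 4 with BBR, under every normal mouse, at −1.47 ± 0.64 with an adjusted p of 0.239. Without overlap were 8 members downwards (20.8% of all genes), among them Tubb3, Stmn3 and Gap43, and 1 upwards (1.95%). Markers of some other cells were lower in these mice as well. Against normal mice and normal mice with BBR, all 18 smooth muscle markers were below 0 (medians −1.28 and −1.83), as were all 8 fibroblast markers (−1.29 and −1.38) and all 6 endothelium markers (−1.24 in both), where 81.1% and 80.1% of all genes were. Of 15 enteroendocrine markers 12 were above 0 in both (medians 0.38 and 0.69), where 18.9% and 19.9% of all genes were. At an unadjusted P of 0.05 or less 3 and 4 of them were higher, with 1.84% and 2.37% of all genes. The part of these cells in the members' values was not tested.

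Without colitis mouse 4 with BBR, 4 members passed the adjusted limit against each normal group: Tac1 upwards and Gfra1, Kit and Ano1 downwards. In the same fits 14.7% of all genes passed against normal mice with BBR and 18.9% against normal mice, so 4 of 30 is near or under the share of all genes.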

How the data were processed

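RNA-seq of 12 mice was deposited as 1 table of expression values per gene. Per the submitters' processing notes, reads were aligned to build mm9 with Bowtie2 2.2.5 and quantified with RSEM 1.2.12; the study's methods give single-end reads of 50 bases. The values were read as FPKM deposited by the authors, from their size and spread, since the header names no unit and TPM could not be told apart. The labels and the methods name different library kits. The table holds no counts, so no count test was run. Depth was inferred only as the worth of 1 read, from single-transcript genes.

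Values were tested as log2(FPKM + 0.1) with limma 3.58.1 (R 4.3.3; trend on mean expression, 1 mean per group, all 12 mice, 8 residual degrees of freedom) on the 15315 genes whose mean reached 0.1 FPKM, at an adjusted limit of 0.05. Exact permutation tests over mice are two-sided. A P of 0.05 or less unadjusted is the study's own limit. Every member was named. From the other lists, genes past the adjusted limit in colitis against normal and the 3 largest changes of a list were eligible to be named. Members and lists were chosen with earlier results of these data known. Promoter windows are RefSeq's and were matched by symbol. Alternatives were another pseudocount, filter, scaling, trend, set of samples or block, and leaving out each mouse.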

Additional observations from a re-analysis of the deposited data

How the results depend on the processing

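Tac1 in colitis against normal passed the limit under all 18 alternatives, with adjusted p-values of 0.00252 to 0.0431. The number of members past it, 1 as reported, was 3 with a term for the mice numbered 4 and 3 in the mice numbered 1 to 3 alone (Tac1, Kit and Ano1 in both, beside 9.22% and 5.25% of all genes), and 1 to 2 leaving out each mouse (S100b joined without colitis mouse 2, with 0.503% of all genes passing, and Kit without colitis mouse 4, with 1.38%). For colitis with BBR against colitis it was 0 to 1 leaving out each mouse. For colitis with BBR against normal with BBR it was 1 with the term for the mice numbered 4 (1.75% of all genes), 4 in the mice numbered 1 to 3 alone (15%) and 0 to 4 leaving out each mouse. Against normal mice it was 3 in the mice numbered 1 to 3 alone (14.1%) and 0 to 4 leaving out each mouse. The other 103 counts stayed within 1.5 times. The compared groups alone gave no value for the interaction, which uses all 4.

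Signs in colitis against normal turned for some members, none of them past the limit. Under quantile normalization Snap25, Nefm, Nefl, Scg3 and Gal were at 0.16, 0.26, 0.00075, 0.39 and 0.11. Under median centring Snap25, Nefm and Scg3 were at 0.15, 0.18 and 0.29, and in the mice numbered 1 to 3 alone at 0.27, 0.039 and 0.54. Leaving out each mouse gave −0.66 to 0.12 for Snap25, −0.55 to 0.31 for Nefm, −0.53 to 0.32 for Scg3, −0.13 to 1.58 for Gfap, −0.95 to 0.13 for Chat, −1.08 to 0.16 for Elavl4 and −0.68 to 0.069 for Elavl3. The signs turned without normal mouse 4 (Snap25, Nefm, Scg3, Elavl4, Elavl3), colitis mouse 1 (Snap25, Nefm, Scg3, Chat, Elavl4), colitis mouse 2 (Gfap) or colitis mouse 4 (Scg3). Without a turn of sign, Hand2 ran from −1.79 to −0.51, Gap43 from −2.31 to −0.50, Gfra2 from −1.30 to −0.05 and Tubb3 from −1.40 to −0.20. The cause was not tested. A mouse left out leaves 2 in its group.

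Mouse numbers were checked for pairing. Deviations from the group means correlated over 0.1 in 12 of 13 pairs with the same number (lowest 0.078), with means of 0.34 among like-numbered mice and −0.10 among the rest. Since not every pair passed 0.1 and no label ties a number to a shared source, the main fit has no block for number. That reason does not cover a term for the mice numbered 4, whose pairs had a mean correlation of 0.50. With that term 9.22% of all genes passed the limit in colitis against normal, where 1.08% did in the main fit. With the replicate block, 1 member passed in colitis against normal (Tac1, 3.21), while calls over all genes went from 100 higher and 65 lower to 339 and 395. Members lower at an unadjusted P of 0.05 or less went from 6 to 10 there, from 4 to 16 in colitis with BBR against normal with BBR and from 5 to 14 against normal mice, while the share of all genes lower went from 15.9% to 18.7%, from 17.3% to 19.4% and from 18.3% to 20.4%. Against normal mice, leaving out each mouse gave 2 to 8 such members. Low members rest on few reads, since 3 reads on 2000 bases were worth up to 0.113 FPKM.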

Other observations

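Gata2, on the mast cell list, was the 1 listed gene past the adjusted limit downwards in colitis against normal, and the granulocyte genes S100a8 and Il1b passed it upwards. Gata2 was at 0.74, 0.88 and 0.83 FPKM in normal mice 1, 3 and 4 and at 0.11, 0.21 and 0.18 in colitis mice 1, 2 and 4. In normal mice with BBR it was at 0.38, 0.36 and 0.46 FPKM, under every normal mouse, and in colitis mice with BBR at 0.18, 0.18 and 0.32. S100a8 was listed at 0 in all 6 mice without DSS and at 336, 290 and 24.9 FPKM in colitis mice 1, 2 and 4.

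The neuropeptide gene Npy was at 1.79, 1.37 and 2.05 FPKM in normal mice 1, 3 and 4 and at 0.98, 0.46 and 0.55 in normal mice with BBR, and at 0, 0.99 and 0.59 in colitis mice 1, 2 and 4 and at 0, 0 and 0.10 in colitis mice 2, 3 and 4 with BBR. The 18 smooth muscle markers were all above 0 in colitis with BBR against colitis, where 38% of all genes were, with a median of −0.09. Their median log2 fold change was 1.09, 0.67 within the mice numbered 1 to 3 and 1.82 within those numbered 4. None had an unadjusted P of 0.05 or less, where 1.19% of all genes were higher at that P. In normal mice with BBR against normal mice all 18 were above 0 as well, with a median of 0.53. There 45.8% of all genes were above 0, with a median of −0.02.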
